A study of Mus musculus with 6 samples.

Results

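The genes examined here were 10 transcripts of ATF4 and of the unfolded protein response, chosen by name from the 17784 genes measured by bulk RNA-seq in mouse corneal epithelial cells. The ATF4 arm held 6 of them (*Atf4*, *Ddit3*, *Trib3*, *Asns*, *Chac1* and *Sesn2*). The chaperone arm held 4 (*Xbp1*, *Hspa5*, *Herpud1* and *Dnajb9*). All 10 were in the table, and all 10 were among the 12999 genes with enough counts to be tested. The study compared 3 Ptch1Prrx1 samples, from *Prrx1-CreERT;Ptch1f/f* mice, with 3 control samples from *Ptch1f/f* mice. Mice of both groups carried the floxed *Ptch1* alleles and were given 3 doses of tamoxifen. The labels give an age of 10 weeks and an interval of 2 months for all 6 samples, and the epithelium was lifted off with EDTA. They do not say whether that is the age at the first dose or at sampling, and the paper's text gives a slightly younger age at induction. *Prrx1-CreERT* is a recombinase that tamoxifen switches on in keratocytes and other mesenchymal cells of the eye. The deletion was thus directed at cells beneath the epithelium and not at the cells that were sequenced. The comparison therefore asks what the epithelium expressed when the Hedgehog receptor gene *Ptch1* was removed from its underlying stroma.

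Total expected counts of control replicates 1, 2 and 3 were 20550100, 20415942 and 20464519. Those of Ptch1Prrx1 replicates 1, 2 and 3 were 20625813, 20352869 and 20296741. With these totals, a floor of 3 counts equals 0.145 to 0.148 CPM, with no allowance for anything but counting error. Normalized counts below are expected counts scaled by TMM, a correction for library size and composition, and a log2 fold change is that of Ptch1Prrx1 against control. In these bulk samples, fewer cells of a type and less RNA per cell cannot be told apart.

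The labelled cell type was checked against its markers. *Krt12*, the keratin of corneal epithelium, had a mean TPM (transcript abundance scaled for gene length and depth) of 44737 over the 6 samples. Of the 10 corneal epithelium markers, 8 did not pass the adjusted p. Among these 8, *Pax6* and *Tkt* were lower in every Ptch1Prrx1 sample than in every control. Their log2 fold changes were -0.22 (adjusted p = 0.112, edgeR) and -0.31 (adjusted p = 0.180). Of all tested genes, 20.3% were lower without overlap. The other 2 markers were called, against 3.23% of all tested genes called and 14.0% passing the adjusted p. The basal keratin gene *Krt14* (log2 fold change 2.81, adjusted p = 0.00769, edgeR) and the clusterin gene *Clu* (1.00, adjusted p = 0.00376) were called higher, and both were highest in Ptch1Prrx1 replicate 1. *Krt14* had 8184, 7760 and 9282 normalized counts in controls and 93094, 48670 and 35435 in Ptch1Prrx1 samples, and its part in the members' values was not tested. *Kera*, a keratocyte proteoglycan, had at most 3 counts in every sample, the only 1 of 9 stroma markers in the table to do so. The stroma marker *Pdgfra* had 428, 389 and 327 normalized counts in controls and 210, 344 and 252 in Ptch1Prrx1 samples. *Col1a2*, another, had 1239 in control replicate 3 and 3.98 to 131 in the other samples. *Ptch1* itself (gene 19206) had 517, 659 and 682 normalized counts in the control samples and 390, 445 and 471 in the Ptch1Prrx1 samples. The groups did not overlap, with a log2 fold change of -0.51 (SE 0.13, adjusted p = 0.0401, edgeR quasi-likelihood test). Ptch1Prrx1 replicate 1 stood apart from the other samples. It was the highest Ptch1Prrx1 sample for 40.9% of all tested genes, against 27.4% and 31.7% for replicates 2 and 3. It was also the lowest most often, for 4899 of the 12999 genes, against 3966 and 4134. *S100a9*, a gene of neutrophils and of stressed epithelium, had 1798 normalized counts there, 7.18 and 30.9 in the other Ptch1Prrx1 samples, and 2.98 to 3.93 in the control samples. Fold changes of members that this sample moves by over 1.5 times are given below with and without it.

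The unfolded protein response is set off when unfolded proteins collect in the endoplasmic reticulum (ER), and it runs through the sensors IRE1, PERK and ATF6. IRE1 splices the *Xbp1* transcript, and spliced XBP1 together with cleaved ATF6 turns on ER chaperones such as BiP, the product of *Hspa5*. PERK phosphorylates eIF2α, which slows general translation but favours translation of *Atf4*. The kinase GCN2 does the same when amino acids run short, so ATF4 can be active without ER stress. ATF4 then turns on genes of amino acid supply, such as *Asns*, and of stress control, such as *Ddit3*, *Trib3*, *Chac1* and *Sesn2*. Because ATF4 is controlled largely by translation and XBP1 by splicing, transcript counts per gene measure the abundance of these messages and not the activity of the pathways.

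The upstream sequences of these genes were searched for elements through which the pathways are known to act, and matches are shown here because they describe the members by sequence instead of expression. All 10 genes had a promoter window in the RefSeq set (build GRCm38.p6, from 250 bases before to 50 bases after the start), and both strands were searched. The 5 windows below are written 5′ to 3′ on the strand of the gene, with the match in capitals.
Hspa5, chr2:34772005-34772063, plus strand: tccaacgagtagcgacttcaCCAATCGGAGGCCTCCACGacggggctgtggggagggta
Herpud1, chr8:94386357-94386407, plus strand: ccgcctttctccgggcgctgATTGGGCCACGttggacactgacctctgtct
Herpud1, chr8:94386296-94386344, plus strand: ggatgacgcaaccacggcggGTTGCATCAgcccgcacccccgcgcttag
Chac1, chr2:119351028-119351076, plus strand: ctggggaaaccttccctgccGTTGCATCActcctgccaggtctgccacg
Asns, chr6:7693210-7693252, minus strand: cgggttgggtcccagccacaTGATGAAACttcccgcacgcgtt

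The *Hspa5* window holds an ER stress element (ERSE, searched as CCAAT and CCACG with 9 bases of any kind between them) from -65 to -47 relative to the start. Among all 32851 promoters searched, 0.119% had a match to these letters, and *Hspa5* was the only 1 of the 10 genes with one. The first *Herpud1* window holds an ERSE-II (ATTGG and CCACG with 1 base between them) from -52 to -42, which was found in 0.0365% of promoters. The capitals of *Chac1*, from -194 to -186 and on the opposite strand, of the second *Herpud1* window, from -113 to -105 and also on the opposite strand, and of *Asns*, from -23 to -15, match the CEBP-ATF response element (CARE, TGATGNAAN) that ATF4 binds with its partners. This looser motif was present in 3.95% of promoters and in 4 of the 10 genes, namely *Chac1*, *Trib3* and *Asns* of the ATF4 arm and *Herpud1* of the chaperone arm. The *Trib3* match, from 14 to 22, lies after the start and is not shown. A match to the XBP1 element UPRE (TGACGTGG) was found in 0 of the 10 genes and in 0.676% of promoters. These matches describe letters in a short window and do not show a bound site.

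In control epithelium the 10 genes spanned a wide range of levels. In mean TPM, *Atf4* stood highest at 265 ± 52.2 (SD, n = 3), followed by *Hspa5* at 196 ± 11.1, *Xbp1* at 103 ± 7.36 and *Herpud1* at 68.7 ± 0.861. Each of these genes lay above the next in every control sample, down to *Dnajb9* at 30.6 ± 6.41. *Chac1* (28.4 ± 4.41), *Asns* (24.4 ± 10.8), *Ddit3* (14.9 ± 2.27) and *Sesn2* (14.3 ± 2.46) followed in that order. From *Dnajb9* to *Sesn2*, neighbours in this order overlapped among the control samples. *Trib3* came last at 1.33 ± 0.510 and lay below *Sesn2* in every control sample. Control epithelium had abundant *Atf4* message and BiP message, lower levels of *Ddit3* and *Sesn2*, which overlapped, and the lowest level for *Trib3*.

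Between the genotypes, 0 of the 10 genes were called, where a call needs an adjusted p no higher than 0.05 together with at least a 2-fold difference. Over all tested genes, 3.23% were called, 2.34% higher and 0.892% lower in Ptch1Prrx1. Without the minimum fold change, 0 of the 10 passed in the edgeR fit of all samples without a replicate block, and 14.0% of all tested genes passed (7.61% higher and 6.41% lower). At an unadjusted p under 0.05, 3 of the 10 passed (*Chac1*, *Hspa5* and *Dnajb9*), against 33.5% of all tested genes. With DESeq2, *Hspa5* (adjusted p = 0.0109) and *Dnajb9* (0.0287) passed the adjusted threshold, and so did 19.4% of all genes. Without Ptch1Prrx1 replicate 3, *Chac1* and *Hspa5* passed with edgeR, against 10.1% of all genes in that fit. With a replicate block and all samples, *Atf4*, *Xbp1* and *Dnajb9* passed the adjusted p, against 14.6% of all tested genes. The shares at the unadjusted p (3 of 10) and with DESeq2 (2 of 10) were near those of all genes. Without a block, the share passing the adjusted p in edgeR (0 of 10) lay below that of all genes, and with the block (3 of 10) above it. The log2 fold change was above 0 for 4 of 6 genes in the ATF4 arm (median 0.12) and for 4 of 4 in the chaperone arm (median 0.39). The median over all tested genes was -0.01. Without Ptch1Prrx1 replicate 1, 3 genes of each arm were above 0, with medians of -0.0057 and 0.23. The ATF4 arm median also turned on other samples, at 0.0052 without control replicate 3, 0.20 without Ptch1Prrx1 replicate 2 and 0.27 without control replicate 1. In TPM, 3 of its 6 genes were above 0, with a median of 0.013 on log2(TPM + 1) and 0.014 on log2(TPM + 0.1). Normalized counts were higher in every Ptch1Prrx1 sample than in every control sample for *Hspa5* alone, and lower without overlap for 0 of the 10. Of all tested genes, 19.7% were higher without overlap and 20.3% lower, 39.9% in all.

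**Figure D1:**
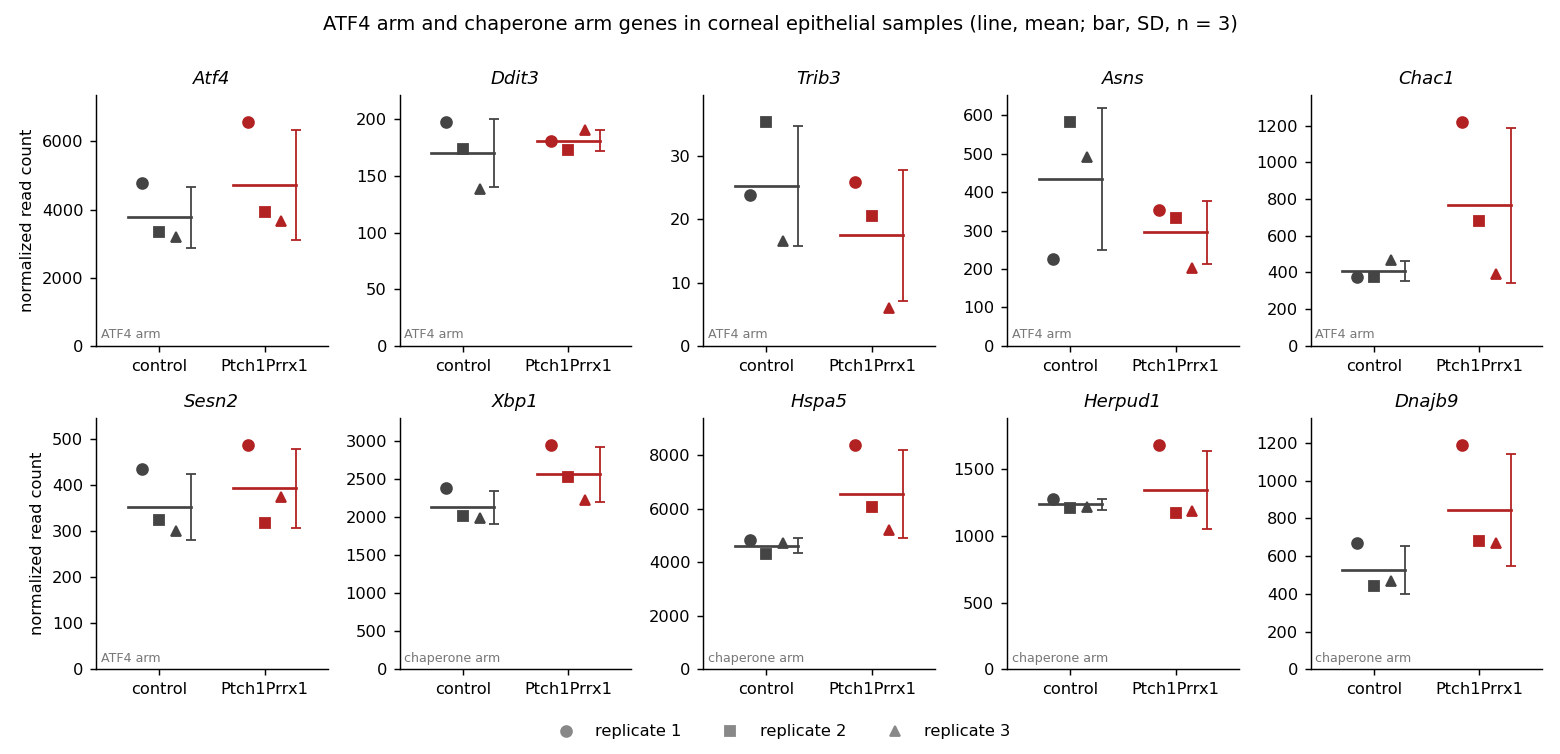
Normalized read counts (vertical axis, from 0) of the 10 genes in each control (grey) and Ptch1Prrx1 (red) sample, with symbols for replicate number, a line for the mean and a bar for the SD (n = 3). Ptch1Prrx1 replicate 1 is the highest of its group in 9 of the 10 panels, and the groups are apart for *Hspa5* only.

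In the ATF4 arm, *Atf4* (gene 11911), which encodes the transcription factor itself, had 4794, 3330 and 3191 normalized counts in control replicates 1, 2 and 3. It had 6580, 3929 and 3664 in Ptch1Prrx1 replicates 1, 2 and 3. Replicate 1 was the high sample in both groups, and the control one lay above Ptch1Prrx1 replicates 2 and 3. This gave a log2 fold change of 0.32 (SE 0.25, 95% interval -0.25 to 0.90, adjusted p = 0.397, edgeR). It was 0.01 without Ptch1Prrx1 replicate 1, 0.22 without control replicate 3 and 0.53 without control replicate 1 (adjusted p = 0.219). An increase of *Atf4* message up to the upper end of that interval was not excluded at this sample size.

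*Chac1* (gene 69065), which encodes a glutathione-degrading enzyme, had the highest log2 fold change of the 10. Its normalized counts were 378, 373 and 469 in the control samples and 1221, 681 and 392 in the Ptch1Prrx1 samples. Ptch1Prrx1 replicates 1 and 2 lay above all controls, while replicate 3 lay within the control range. The log2 fold change of 0.91 (SE 0.36, 95% interval 0.07 to 1.75) did not pass adjustment (adjusted p = 0.126, edgeR). This value turned on single samples. Without Ptch1Prrx1 replicate 3 it was 1.23 and the gene was called (adjusted p = 0.0333, edgeR), and without Ptch1Prrx1 replicate 1 it was 0.40 (adjusted p = 0.284).

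*Asns* (gene 27053), the asparagine synthetase gene, had a lower mean in Ptch1Prrx1 samples. It had 227, 583 and 492 normalized counts in the control samples and 353, 334 and 202 in the Ptch1Prrx1 samples. Control replicate 1, which was the highest control for 7 of the 10 genes, was the lowest control for *Asns*. Its log2 fold change was -0.55 (SE 0.35, 95% interval -1.37 to 0.26, adjusted p = 0.305, edgeR), and the groups overlapped. It was -0.86 without control replicate 1, -0.28 without control replicate 2 and -0.34 without Ptch1Prrx1 replicate 3. *Trib3* (gene 228775), a pseudokinase gene that ATF4 and CHOP turn on and that restrains them, had 23.8, 35.4 and 16.5 normalized counts in controls and 25.8, 20.5 and 5.97 in Ptch1Prrx1 samples. At these low counts its log2 fold change of -0.53 had an interval from -1.73 to 0.66 (adjusted p = 0.505, edgeR), and it was -0.93 without Ptch1Prrx1 replicate 1, -0.21 without control replicate 2 and -0.12 without Ptch1Prrx1 replicate 3.

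*Ddit3* (gene 13198), which encodes the pro-apoptotic factor CHOP, was the member with the closest group means. Its normalized counts were 198, 174 and 139 in the control samples and 181, 172 and 190 in the Ptch1Prrx1 samples. The fitted log2 fold change was 0.09 (SE 0.15, 95% interval -0.26 to 0.44, adjusted p = 0.711, edgeR), and it was -0.08 when fitted on log2(TPM + 1), so no direction can be given. A doubling of *Ddit3* lies outside this interval. *Sesn2* (gene 230784), which encodes the leucine-sensing inhibitor sestrin 2, had 434, 324 and 299.9 normalized counts in controls and 487, 318 and 374 in Ptch1Prrx1 samples. Its groups overlapped, and the log2 fold change of 0.16 (SE 0.19, adjusted p = 0.609, edgeR) became -0.02 without Ptch1Prrx1 replicate 1 and 0.33 without control replicate 1.

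In the chaperone arm, *Hspa5* (gene 14828), which encodes the ER chaperone BiP, had 4807, 4286 and 4720 normalized counts in control replicates 1, 2 and 3. It had 8372, 6053 and 5215 in Ptch1Prrx1 replicates 1, 2 and 3. The controls lay close together, and the Ptch1Prrx1 samples were spread out above them. Their log2 fold change was 0.51 (SE 0.16, 95% interval 0.13 to 0.89, adjusted p = 0.0755, edgeR), so it missed the threshold, and the interval excluded a doubling. It was 0.65 with an adjusted p of 0.0401 without Ptch1Prrx1 replicate 3 and 0.29 without Ptch1Prrx1 replicate 1 (edgeR).

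*Dnajb9* (gene 27362), which encodes the BiP co-chaperone ERdj4 and is a target of XBP1, had 672, 442 and 467 normalized counts in the control samples. It had 1190, 678 and 668 in the Ptch1Prrx1 samples. Control replicate 1 (672) lay between the 2 lower Ptch1Prrx1 samples, so the groups overlapped by a few counts. In TPM they did not overlap for *Dnajb9* or *Hspa5*, against 16.2% of all tested genes higher without overlap on that scale, 21.5% lower and 37.7% in all. From the counts, the log2 fold change was 0.68 (SE 0.26, 95% interval 0.08 to 1.28, adjusted p = 0.112, edgeR) and 0.36 without Ptch1Prrx1 replicate 1.

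*Xbp1* (gene 22433), the transcription factor gene whose message IRE1 splices, had 2379, 2013 and 1989 normalized counts in controls and 2948, 2522 and 2226 in Ptch1Prrx1 samples. Only Ptch1Prrx1 replicate 3 lay within the control range, and the log2 fold change was 0.27 (SE 0.12, adjusted p = 0.154, edgeR), or 0.16 without Ptch1Prrx1 replicate 1. The spliced and unspliced forms are counted together in these values. *Herpud1* (gene 64209), which encodes an ER membrane protein that assists degradation of misfolded proteins, had 1280, 1208 and 1220 normalized counts in controls and 1682, 1170 and 1187 in Ptch1Prrx1 samples. Apart from Ptch1Prrx1 replicate 1, its Ptch1Prrx1 values lay below every control. Its log2 fold change was accordingly 0.12 (SE 0.14, adjusted p = 0.577, edgeR) with that sample and -0.07 without it, and 0.21 without Ptch1Prrx1 replicate 2 or 3.

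**Figure D2:**
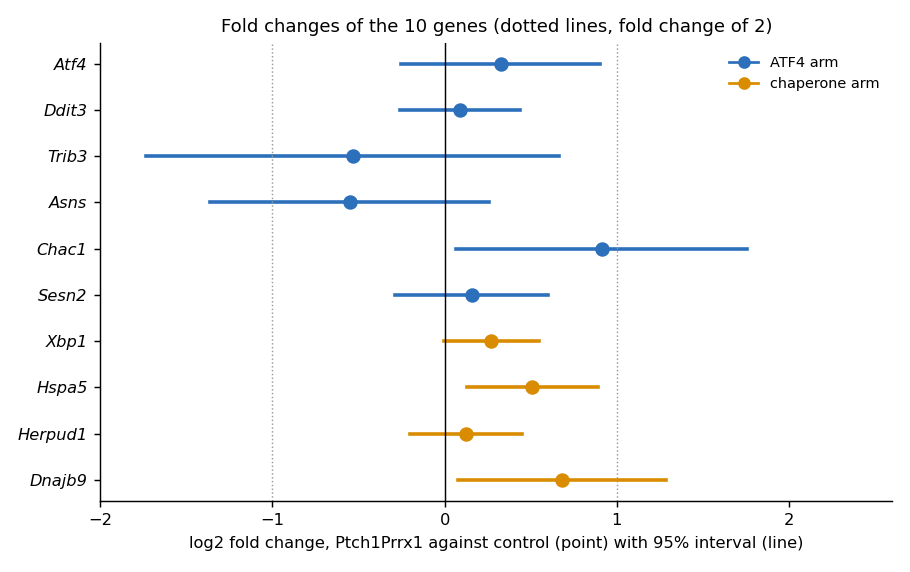
Log2 fold change of each gene, Ptch1Prrx1 against control (horizontal axis), as a point with its 95% interval from edgeR; blue, ATF4 arm; orange, chaperone arm. The points of the chaperone arm lie between 0.12 and 0.68, and those of the ATF4 arm are spread from -0.55 to 0.91.

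The arms were then set against each other within each sample. The mean log2 normalized count of the 6 ATF4 arm genes was 8.26, 8.39 and 8.14 in the control samples and 8.75, 8.31 and 7.80 in the Ptch1Prrx1 samples. The group means were 8.27 ± 0.13 and 8.29 ± 0.48 (SD, n = 3), with the Ptch1Prrx1 samples on both sides of the controls. For the 4 chaperone arm genes it was 10.79, 10.52 and 10.57 in controls and 11.37, 10.87 and 10.77 in Ptch1Prrx1 samples, where control replicate 1 lay above Ptch1Prrx1 replicate 3. The ATF4 arm minus the chaperone arm gave -2.53, -2.12 and -2.43 in controls and -2.62, -2.56 and -2.96 in Ptch1Prrx1 samples. Every Ptch1Prrx1 sample lay below every control, by as little as the gap between -2.56 and -2.53, and the mean was lower by 0.35 on the log2 scale. The mean difference ranged from -0.44 to -0.23 with any 1 sample left out, and from -0.35 to -0.20 under other settings. Each gene has equal weight in the mean of its arm, including *Trib3*, which had only 5.97 to 35.4 normalized counts. The separation of the groups can therefore not be read as shared by the other ATF4 arm genes. The difference between the arms is a description of the chosen genes and was not tested.

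**Figure D3:**
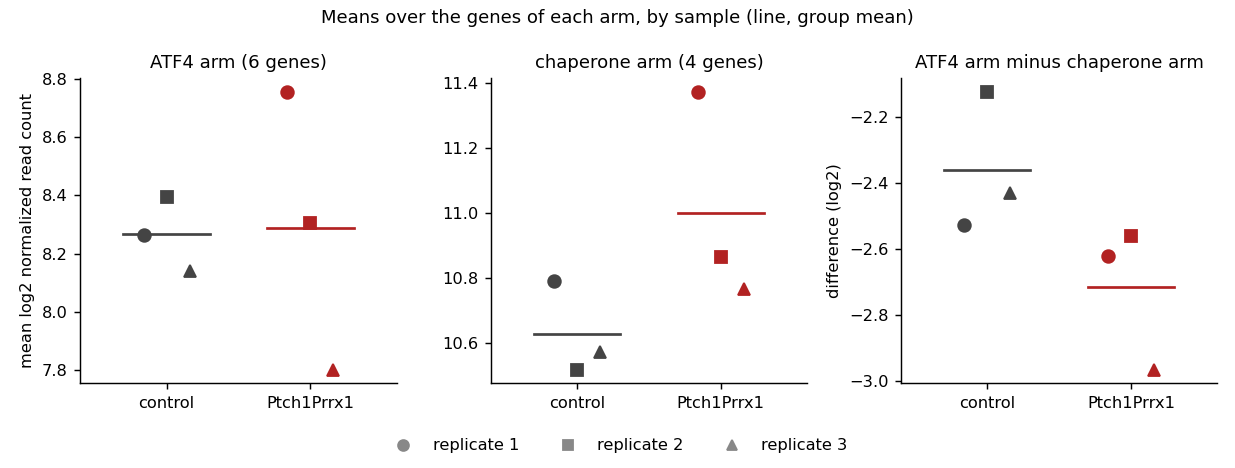
Mean log2 normalized read count of the ATF4 arm genes and of the chaperone arm genes, and their difference, in each sample (vertical axes do not start at 0); lines are group means, symbols give the replicate number. The ATF4 arm means are 8.27 and 8.29, the chaperone arm means 10.63 and 11.00, and the differences do not overlap between groups. The low-count gene *Trib3* has the same weight in the ATF4 arm mean as the other genes.

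Much of the spread among members followed single samples. Ptch1Prrx1 replicate 1 was the highest of its group for 9 of 10 members, with *Ddit3* the exception, and control replicate 1 was the highest control for 7 of 10, against 35.3% of all tested genes. The genes with patterns most like that of *Atf4* over the 6 samples were *Cldn17*, a claudin gene, *Trim13* and *Csta1*. Their root mean square distances in centred log2 normalized counts were 0.06, 0.08 and 0.10 among 10322 genes with a mean of at least 100. The nearest member to *Atf4* was *Sesn2* at 0.16, while *Asns* was far from it at 0.75. *Cers3*, a ceramide synthase gene, *Smox* and *Pdcd6* lay nearest to *Hspa5*, at 0.04, 0.05 and 0.05, and *Xbp1* was its nearest member at 0.15.

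Around the members, 7 lists of pathway genes were followed, and 96 of their 102 genes were tested. Of these, 3 were called higher and 1 lower, which is 4.17% against 3.23% of all tested genes. Without a minimum fold change, 8 passed higher and 4 lower, or 12.5% against 14.0%. The median log2 fold change of the 96 genes was 0.06. The lists as a whole were therefore called about as often as other genes, and the called genes of these lists were *Ppp1r15a*, *Nupr1*, *Slc38a2* and *Vldlr*.

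Among the sensors and regulators of eIF2α, 13 genes were tested and 2 passed the adjusted threshold, both higher, or 15.4% against 14.0% of all tested genes. *Eif2ak3*, which encodes PERK, had 568, 581 and 567 normalized counts in controls and 1003, 770 and 824 in Ptch1Prrx1 samples. The controls were nearly equal and the groups stood well apart. With a log2 fold change of 0.60 (SE 0.11, adjusted p = 0.0171, edgeR), *Eif2ak3* was short of the 2-fold difference needed for a call, and it was 0.48 without Ptch1Prrx1 replicate 1. Leaving out control replicate 1, 2 or 3 gave an adjusted p of 0.0514, 0.0795 or 0.0529. *Ppp1r15a* encodes GADD34, which directs a phosphatase to eIF2α and so reverses the step that PERK takes. It had 929, 703 and 697 normalized counts in controls and 2766, 1719 and 1365 in Ptch1Prrx1 samples. Its log2 fold change of 1.33 (SE 0.26, adjusted p = 0.0207, edgeR) was called, and it was 0.99 without Ptch1Prrx1 replicate 1 (adjusted p = 0.0130). The call was also lost without control replicate 2 (adjusted p = 0.0969) or control replicate 3 (0.0627). The other sensors did not pass, with log2 fold changes of -0.03 for *Ern1* (IRE1), 0.24 for *Atf6* (adjusted p = 0.101) and -0.19 for *Eif2ak4* (GCN2).

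Among transcription and stress factors downstream of ATF4, 9 of 12 listed genes were tested, 2 passed higher and 3 lower, or 55.6% against 14.0% of all tested genes. *Nupr1*, a small stress-induced chromatin factor, had 80.5, 127 and 125 normalized counts in controls and 677, 261 and 336 in Ptch1Prrx1 samples. With no overlap between groups, the log2 fold change was 1.94 (SE 0.37, adjusted p = 0.0204, edgeR), and it was 1.43 without Ptch1Prrx1 replicate 1 (adjusted p = 0.0123). Leaving out control replicate 1, 2 or 3 gave an adjusted p of 0.0629, 0.0851 or 0.0553, and limma on log2(TPM + 1) without a filter gave 0.0572. *Cebpb*, a dimer partner of ATF4, had 811, 659 and 495 normalized counts in controls and 1034, 1055 and 1001 in Ptch1Prrx1 samples, with a log2 fold change of 0.65 (adjusted p = 0.0390). *Vldlr*, a lipoprotein receptor gene, had 370, 429 and 345 normalized counts in controls and 127, 222 and 87.6 in Ptch1Prrx1 samples. It was the only gene of the lists called lower (log2 fold change -1.39, SE 0.30, adjusted p = 0.0266, edgeR), and leaving out Ptch1Prrx1 replicate 1 (0.0556) or control replicate 1 (0.0692), 2 (0.105) or 3 (0.0586) lost the call. *Cebpg* (-0.32) and *Jdp2* (-0.25) also passed lower, without a call.

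*Atf3*, a stress factor that ATF4 and many other signals turn on, had 426, 40.3 and 28.1 normalized counts in control replicates 1, 2 and 3. It had 942, 892 and 1586 in Ptch1Prrx1 replicates 1, 2 and 3. Every Ptch1Prrx1 sample lay above every control, but control replicate 1 was more than 10 times the others of its group. A log2 fold change of 2.79 (SE 0.86, adjusted p = 0.0675, edgeR) missed the threshold, and it was 5.05 with an adjusted p of 0.0127 without control replicate 1. *Atf3* was also called with limma-voom on all samples (3.81, adjusted p = 0.0247). *Gdf15*, *Fgf21* and *Stc2*, further known targets, had too few counts to be tested.

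The amino acid arm of the ATF4 program was mixed. Of 11 synthesis genes, *Psat1* of the serine pathway was the only one to pass, with 1796, 1729 and 1970 normalized counts in controls and 2824, 2494 and 2244 in Ptch1Prrx1 samples (log2 fold change 0.46, adjusted p = 0.0257, edgeR). That is 9.09% of the list, against 14.0% of all tested genes. *Pck2* had the lowest log2 fold change of that list, -0.52 (adjusted p = 0.0818). Of 9 transporters, 1 was called, or 11.1% against 3.23% of all tested genes. This was *Slc38a2*, the glutamine and neutral amino acid carrier SNAT2. It had 9574, 10019 and 10462 normalized counts in controls and 31563, 20880 and 16840 in Ptch1Prrx1 samples. All Ptch1Prrx1 samples lay far above the controls, with a log2 fold change of 1.20 (SE 0.21, adjusted p = 0.0166, edgeR), or 0.92 without Ptch1Prrx1 replicate 1, where it passed the p but not the fold threshold. The call was lost without control replicate 1 (adjusted p = 0.0539) or 2 (0.0810). The other 8 transporters did not pass, and the median of the list was -0.16. *Slc7a11*, the cystine carrier, had a log2 fold change of -0.88 at about 21.3 normalized counts in controls (adjusted p = 0.0643).

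Cytosolic tRNA synthetases, which ATF4 turns on as a group, were followed together with the tRNA exportin gene *Xpot*. The 13 genes of this list had log2 fold changes from -0.29 (*Wars*, adjusted p = 0.0481, edgeR) to 0.10 (*Tars*, adjusted p = 0.505) and a median of 0.03. *Wars* was the only one to pass, in the lower direction, or 7.69% against 14.0% of all tested genes. Over all 4 lists of ATF4 targets, 4 genes passed higher and 4 lower among 42 tested, or 19.0% against 14.0% of all tested genes, and the log2 fold change was above 0 for 21 and below 0 for 21.

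**Figure D4:**
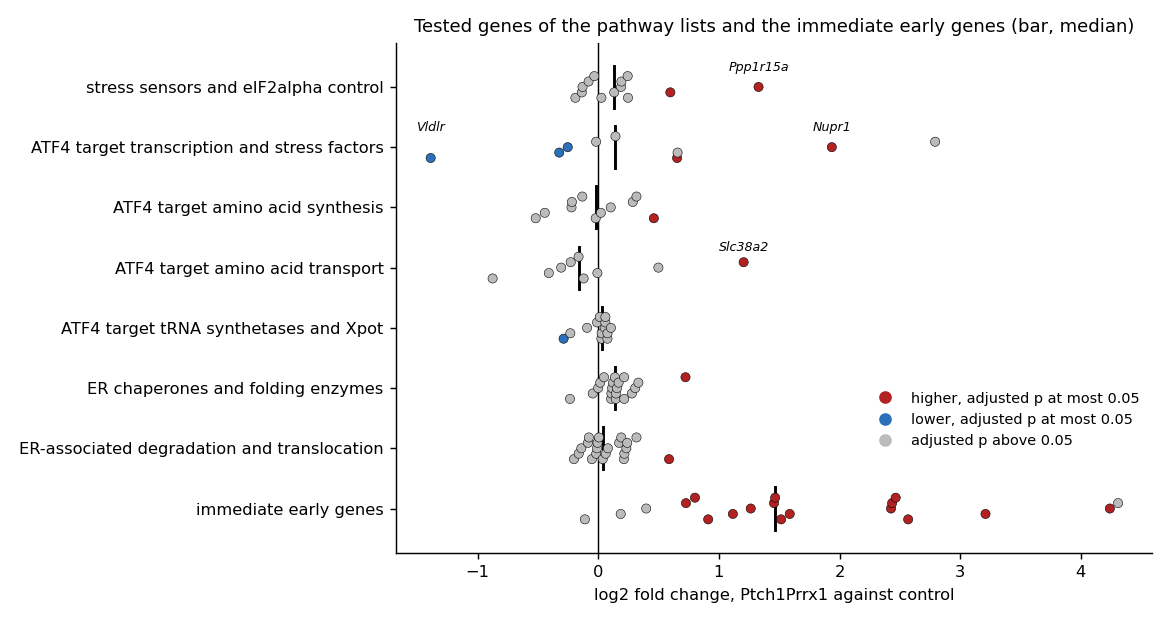
Log2 fold change, Ptch1Prrx1 against control (horizontal axis), of each tested gene (point) in the 7 pathway lists, with the tRNA exportin gene *Xpot* among the synthetases, and in the immediate early genes, colored by adjusted p from edgeR; bars are list medians. Medians of the pathway lists lie between -0.16 and 0.14, and that of the immediate early genes is 1.47.

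The ER folding machinery was followed beyond the members. Of 20 chaperones and folding enzymes, 17 had a log2 fold change above 0, with a median of 0.14. Summed TPM of the list was 2088, 2116 and 2204 in controls and 2535, 2272 and 2146 in Ptch1Prrx1 samples. The sum was highest in Ptch1Prrx1 replicate 1, while Ptch1Prrx1 replicate 3 lay below control replicate 3. The part of replicate 1 in the median of this list was not tested. Groups did not overlap for 6 of the 20, all higher (30.0% against 19.7% of all tested genes), but *Sdf2l1* was the only one to pass. *Sdf2l1*, an ER chaperone partner gene, had 77.5, 72.8 and 58.2 normalized counts in controls and 128, 104 and 112 in Ptch1Prrx1 samples (log2 fold change 0.72, SE 0.18, adjusted p = 0.0375, edgeR). Its adjusted p was between 0.0609 and 0.116 when any 1 sample was left out. The lowest value of this list was -0.23, for the oxidase gene *Ero1b* (adjusted p = 0.414). Among 21 tested genes of ER-associated degradation and translocation, *Ssr3*, a subunit gene of the translocon-associated complex, was the only one to pass, with a log2 fold change of 0.59 (adjusted p = 0.0339), and *Ube2j1* was lowest at -0.20 (adjusted p = 0.0567). Over both lists, 2 of 41 genes passed, or 4.88%, against 14.0% of all tested genes.

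Other gene groups differed by genotype or in single samples. Immediate early genes, a group induced quickly by many stimuli including tissue handling, had 15 of 19 genes passing higher and 0 lower (12 called, median log2 fold change 1.47). Of all tested genes, 7.61% passed higher and 2.34% were called higher. Their summed TPM was 2848, 3019 and 2619 in controls and 5417, 5558 and 4708 in Ptch1Prrx1 samples, with *Klf4* the most abundant. *Atf3* and *Ppp1r15a* belong to the early response as well as to the ATF4 program, and the part of handling in their values was not tested.

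Immune markers summed to 118, 138 and 155 TPM in controls and 648, 152 and 176 in Ptch1Prrx1 samples, with *Itgam* the most abundant on average and *Adgre1*, *Lyz2* and *Cd3e* at no more than 3 counts throughout. In Ptch1Prrx1 replicate 1, *S100a9* gave 373 TPM of that sum and *S100a8* 78.8, while the leukocyte gene *Ptprc* had 1.03 normalized counts. Conjunctival markers, led by *Krt13*, summed to 1427, 1900 and 2379 TPM in controls and 4761, 2216 and 2956 in Ptch1Prrx1 samples, with *Tff1* and *Tff3* at no more than 3 counts. Of 6 tested conjunctival markers, 4 had a log2 fold change above 0, and the only one to pass the adjusted p was *Krt8*, which was lower (-0.91, adjusted p = 0.0139, edgeR). Both sums were highest in Ptch1Prrx1 replicate 1, the sample in which 9 of the 10 members were highest in their group, and the part of either marker set in the members' values was not tested. Stromal markers, led by *Col1a2*, summed to 10.1, 8.60 and 39.8 TPM in controls and 8.44, 10.5 and 6.95 in Ptch1Prrx1 samples. Markers of plasma cells, a type known for its large ER, summed to between 981 and 1171 TPM, nearly all of it *Sdc1*, which epithelium also expresses, while *Mzb1* and *Irf4* had at most 3 counts in every sample. Of 2 plasma cell markers tested, 1 was higher and 1 lower without overlap between groups, against 39.9% of all tested genes without overlap. *Prdm1*, which epithelium can also express, was the higher one and passed (log2 fold change 0.52, adjusted p = 0.0119, edgeR). *Sdc1* was the lower one and did not pass (-0.12, adjusted p = 0.231, edgeR). Melanocyte markers, led by *Pmel*, summed to between 8.70 and 10.8 TPM.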

How the data were processed

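RNA of corneal epithelial cells from 3 control and 3 Ptch1Prrx1 samples was sequenced, with groups and replicate numbers taken from the labels. The study states biological replicates, without saying how many mice each holds. The authors aligned reads with Bowtie2 2.2.5 and quantified genes with RSEM 1.2.12; the submitters' processing notes list build mm9. The labels name an Illumina kit, and the methods rRNA depletion and DNA nanoball sequencing. The authors deposited expected counts, which are estimates per gene without scaling for depth. They also deposited TPM values, scaled for length and depth, and FPKM values, which were not used here. Of the values above 0, 39.4% were not whole, and expected counts were rounded.

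Genes passing filterByExpr (12999) were tested with the quasi-likelihood test of edgeR 4.0.16 in R 4.3.3 (TMM, ~ group), with Benjamini-Hochberg adjustment over all of them. Intervals are 95%. An exact test of 3 against 3 cannot go below p = 0.10, so the p values come from this fit. The thresholds are those in the study's RNA-seq methods, which name no test for that step. TPM was compared on the log2 scale with pseudocounts of 1 and 0.1 (limma 3.58.1), which understates changes of low genes. The fit was tested on simulated data. Replicates differed by more than sampling noise (10.6 to 40.0 for chi-square over its degrees of freedom).

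The members and lists were chosen with earlier results of these data known. Named genes were all members, 7 fixed regulators, every called gene of each list or, with fewer than 2 called, its highest and lowest, the top gene of each marker list, and the 3 genes nearest to *Atf4* and to *Hspa5*. *S100a8*, *S100a9*, *Ptprc*, *Krt14*, *Clu*, *Pax6*, *Tkt*, *Pdgfra*, *Krt8*, *Prdm1*, *Xpot*, *Cebpg*, *Jdp2*, *Klf4*, *Gdf15*, *Fgf21*, *Stc2* and the markers at no more than 3 counts were named after their values were seen. Alternatives were DESeq2 1.42.0, limma-voom, RLE and upper-quartile factors, other filters (at least 10 counts in every sample), other thresholds, TPM, a replicate block and leaving out each sample.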

Additional observations from a re-analysis of the deposited data

How the results depend on the processing

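Over the alternatives, 0 members were called, except that *Chac1* was called without Ptch1Prrx1 replicate 3, so leaving out samples gave 0 to 1 calls in the ATF4 arm. Direction held for 7 of the 10 members. *Ddit3* was -0.079 on log2(TPM + 1), with or without a filter, and -0.084 on log2(TPM + 0.1), and it ranged from -0.039 to 0.21 as samples were left out. *Sesn2* ranged from -0.024 to 0.33 and *Herpud1* from -0.066 to 0.21, and *Ern1*, at -0.033, from -0.10 to 0.016. *Trib3* had no value with at least 10 counts required in every sample, nor *Slc7a11* where the mean TPM had to reach 1. The difference between the arms stayed between -0.44 and -0.20. Over the whole table, 304 genes were called higher and 116 lower. limma on log2(TPM + 1) gave 145 and 58, the same without a filter 105 and 42, and log2(TPM + 0.1) 174 higher. No minimum fold change gave 989 and 833, so that 54.3% in place of 72.4% were higher, and an unadjusted p with a fold change of at least 2 gave 175 lower. Leaving out a sample, which leaves fewer samples, gave 45 to 298 higher and 14 to 132 lower, fewest without control replicate 2. In the 7 pathway lists, the 3 higher and 1 lower became 8 and 4 with no minimum fold change, and 0 to 3 and 0 to 1 as samples were left out. Of the list genes that passed the adjusted p without a call, *Cebpb* had an adjusted p of 0.0321 to 0.132 as samples were left out, *Psat1* 0.0259 to 0.110, *Ssr3* 0.0235 to 0.132 and *Wars* 0.0699 to 0.163, each highest without control replicate 2. Same-numbered samples did not deviate together over all tested genes (correlations 0.105, -0.0137 and 0.0189). The labels do not say whether the numbers pair samples, and these correlations cannot settle it. With a replicate block, 0 members were called, while *Atf4* (0.0483), *Xbp1* (0.0426) and *Dnajb9* (0.0147) passed the adjusted p alone, as did 14.6% of all tested genes. Where not stated, the cause was not tested. With 3 samples a group, small changes in the members remain undetected.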
